A study of Mus musculus with 4 samples.

Results

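Glutamate receptor subunits were examined in single nuclei of the mouse cerebral cortex. The 10 genes are the 4 AMPA receptor subunits (Gria1, Gria2, Gria3, Gria4) and 6 NMDA receptor subunits (Grin1, Grin2a, Grin2b, Grin2c, Grin2d, Grin3a), found by symbol among the 32285 genes of the count matrices. Every animal was a Gclc-KO mouse, in which floxed Gclc, encoding the catalytic subunit of the enzyme that starts glutathione synthesis, was recombined by Cre under the CaMKII promoter, which is active in forebrain excitatory neurons. Groups were 2 mice of 3 months and 2 mice of 6 months, 1 library a mouse, with 1 mouse of each age in batch 1 and 1 in batch 2. No library of a mouse with intact Gclc was analysed here, so the data compare cell types and ages within the knockout. Tissue was taken where rod-shaped microglia were plentiful, nuclei were sorted by DAPI, and unique molecular identifiers (UMIs, 1 for each captured transcript) were counted with the 10x 3′ assay.

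AMPA receptors are tetramers that carry the fast current of excitatory synapses. The subunit encoded by Gria2 makes the channel nearly impermeable to calcium, because its transcript is edited at 1 codon of the pore, so receptors lacking it pass calcium. NMDA receptors need the obligatory subunit encoded by Grin1, combined with Grin2 subunits that set the kinetics and magnesium block, or with the Grin3a subunit, which lowers calcium entry and magnesium block. Oligodendrocyte precursor cells (OPC) also carry both receptor families.

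The 4 AMPA genes encode close relatives. Over aligned residues translated from GENCODE M21 transcripts, identity was 69.5% between Gria1 and Gria2, 72.2% between Gria2 and Gria3 and 73.1% between Gria2 and Gria4. The coding stretch around the editing codon of the pore (the Q/R site, glutamine in the genome) is shown because the share of Gria2 among AMPA transcripts is a main readout. Each line has 45 bases, 5′ to 3′ on the coding strand, with the codon of the site in capitals.
Gria1: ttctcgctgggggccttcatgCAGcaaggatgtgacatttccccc
Gria2: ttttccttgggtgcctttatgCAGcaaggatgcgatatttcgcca
Gria3: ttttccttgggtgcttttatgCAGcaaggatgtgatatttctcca
Gria4: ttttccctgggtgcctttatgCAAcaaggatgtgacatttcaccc
All 4 genes hold a glutamine codon there, and Gria2 and Gria3 differ at 3 of the 45 bases. In the build GRCm38 the codon lies in coding exon 11 of 16 of Gria2 (transcript Gria2-201, chr3:80706911-80706913, minus strand). Editing could not be read from UMI counts, which give the transcript's gene and not its bases.

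Whether reads from introns were counted was not given in the sources used here, and the gene spans differ widely. Grin2b covered 460 kb (chr6:135713233-136173511) and Grin2a 428 kb (chr16:9567898-9995560), against 28.0 kb for Grin1 (chr2:25291181-25319187) and 18.1 kb for Grin2c (chr11:115249169-115267243). The order of levels between genes depended on how length was counted. In excitatory neurons the level per kb of gene span was 19.9 CPM (UMIs of a gene scaled to the total of the class in its library) for Grin1 and 14.8 for Gria2, against 2.22 for Gria4. Per kb of exons the levels were 57.5 for Grin1, 116 for Gria2 and 133 for Gria4. The comparisons that follow set the same gene, the same subunit share or the same sum over a family side by side across cell types. Shares and sums are not scaled to gene length. Grin1, Grin2b and Grin2d overlap annotated genes on the opposite strand and Grin3a contains Ppp3r2 on its own strand; how the counting treated reads in these overlaps was not given in the sources used here.

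Of 30515 nuclei kept after the study's filter, 20102 (65.9%) were given a class from marker genes that include none of the 10 subunit genes. There were 11624 excitatory nuclei, of which 6912 fell into 6 types (layer 2/3, layer 4, layer 5, layer 6 corticothalamic, layer 6b and a Tshz2 type), and 2617 interneurons, among them Pvalb, Sst, Vip and Lamp5 types of 506, 246, 123 and 316 nuclei. OPC numbered 586, oligodendrocytes 3458, astrocytes 226 and microglia 1062. The libraries had a median of 5994 to 8140 UMIs per nucleus, and any 2 libraries shared 12 to 19 cell barcodes. Markers held out of the classification matched the names: Sv2b averaged 414 CPM in excitatory neurons and 21.2 in interneurons, Sox10 was 501 in OPC and 1.09 in excitatory neurons, and Lhx6 was 102 in Sst and 70.7 in Pvalb nuclei, with no UMI in Vip nuclei. The 334 nuclei called by markers of striatal spiny neurons did not match that name. Rgs9, a striatal marker, stood at 127, 223, 200 and 8.22 CPM in the first and second 3-month and the first and second 6-month library (mean 20.7 in interneurons), and Adarb2, an interneuron marker, at 2465, 2195, 2086 and 9792 (mean 3332 in interneurons). The second 6-month library was thus low in the striatal marker and highest in the interneuron marker. They are called the striatal-marker nuclei here, and each value for them is to be read with that in view. Granule-type nuclei (97, of which 78 came from the second 3-month mouse) were too few for a test. Gclc itself averaged 36.6 ± 4.41 CPM in excitatory neurons and 42.8 ± 4.70 in interneurons (SD, n = 4). These counts per gene cannot tell a recombined transcript from an intact one. By Western blot, the paper reported a marked reduction of GCLC protein in the knockout cortex.

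GABAergic interneurons differed from excitatory neurons in each of the 9 subunit genes that could be tested. Gria1 was 2.00-fold higher (1798 against 796 CPM, means of 4 mice, log2 fold change 1.00 ± 0.06 SE) and Gria4 was 1.48-fold higher, while Gria2 was 1.43-fold and Gria3 1.40-fold lower. Grin3a was 5.90-fold and Grin2d 3.41-fold higher, whereas Grin2a was 1.89-fold, Grin1 1.55-fold and Grin2b 1.44-fold lower. Not every interneuron type followed these directions. Grin2a averaged 3471 CPM in Lamp5 nuclei, above every excitatory type, and Gria3 averaged 1218 in Sst nuclei, above layer 5 (901). Gria2 held 49.8% of AMPA UMIs in Vip nuclei, against 41.2% in excitatory neurons. Of the genes higher in interneurons, Grin3a averaged 28.6 CPM in Vip nuclei, below layer 5 (43.6) and the Tshz2 type (80.0). Gria4 averaged 633 in Vip nuclei, below layer 5 (709), and Gria1 745 in Lamp5 nuclei, below the excitatory mean (796). The calls come from edgeR's quasi-likelihood test on UMI sums with the mouse as a block, Benjamini-Hochberg adjusted over all genes, and adjusted p ran from 4.08e-11 for Grin3a to 5.40e-05 for Gria4. Of all 17547 genes tested, 54.3% were called in this comparison, so the count of 9 stands beside a high background. Grin2c did not pass the count filter. A UMI sum over a class cannot tell fewer expressing nuclei from less RNA per nucleus, here or in the comparisons that follow.

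Grin3a measured 227, 222, 257 and 258 CPM in the first and second 3-month and the first and second 6-month mouse, in interneurons. It was 31.8 to 42.8 in excitatory neurons, and the 2 classes did not overlap. By type, Sst nuclei held the most (526 to 680), while Vip nuclei (8.54 to 54.6) overlapped excitatory neurons. Grin2d ranged from 40.2 to 43.4 in interneurons and from 10.3 to 11.7 in excitatory neurons, without overlap. The level summed over the 4 AMPA genes was 5375 ± 165 CPM in interneurons and 4363 ± 134 in excitatory neurons (SD, n = 4), while the 6 NMDA genes summed to 3344 ± 135 and 4432 ± 427. The AMPA sum was higher and the NMDA sum lower in interneurons than in excitatory neurons in every mouse, but not in every interneuron type. The AMPA sum was 3693 ± 544 in Vip and 3851 ± 259 in Lamp5 nuclei, below the excitatory mean. The NMDA sum of Lamp5 nuclei, 5496 ± 615, was above the excitatory mean of that sum. The size of the AMPA difference depends on how length is counted. Per kb of gene span Gria2, lower in interneurons (11.7 against 14.8 CPM), outweighed Gria1, higher there (5.64 against 2.50). Sums per kb were not tested.

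The shares of the subunits among the UMIs of their family also differed. Gria2 made up 26.5% ± 0.478 of AMPA subunit UMIs in interneurons and 41.2% ± 1.11 in excitatory neurons, a difference of 14.7 percentage points, lower in 4 of 4 mice. Gria1 made up 33.5% ± 0.944 and 18.2% ± 2.01. Among the Grin2 genes, Grin2d took 1.56% ± 0.0841 in interneurons and 0.285% ± 0.0298 in excitatory neurons. An exact sign-flip test over 4 mice cannot give p below 0.125 (two-sided), which these shares reached. Of 104 such share contrasts between classes, 72 had one direction in 4 of 4 mice, which a single contrast does by chance with probability 0.125. The contrasts are not independent, since a rise of one share lowers the others of its family and types recur between contrasts. The smallest Benjamini-Hochberg adjusted p of the sign-flip test was 0.181, so no share contrast could pass.

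**Figure D1:**
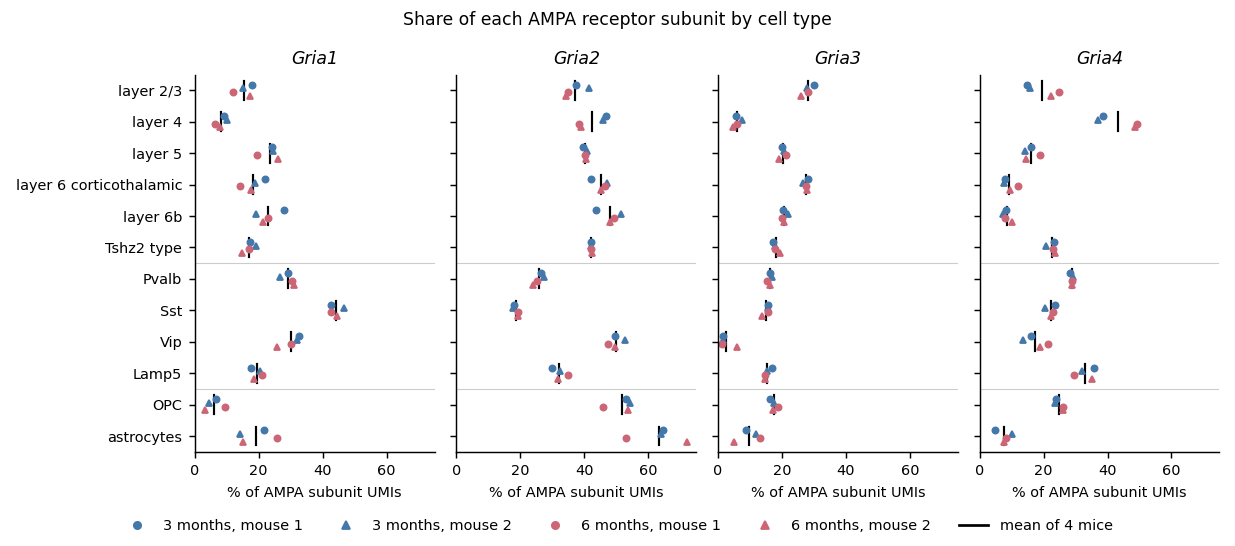
Percent of the UMIs of the 4 AMPA subunit genes taken by each gene (x axis) in each cell type (y axis), for 4 mice (points) with their mean (black line); grey lines divide excitatory types, interneuron types and glia. Layer 4 stands out by Gria4 (43.4%) with little Gria3 (5.97%), Sst by Gria1 (44.05%), and Vip by almost no Gria3 (2.62%). Vip is high in Gria2 (49.8%) among the interneuron types only, since OPC (51.7%) and astrocytes (63.4%) are higher.

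Layer 4 neurons, which receive the main thalamic input, held little Gria3 and Gria1 and much Gria4 among the excitatory types. Gria3 measured 206, 272, 225 and 177 CPM in the 4 mice, in the order given above, while every other excitatory type lay between 684 and 1418. Gria3 was 4.18-fold lower in layer 4 than in the mean of the other 5 excitatory types (log2 fold change -2.06 ± 0.09, adjusted p = 2.15e-17, edgeR). Gria1 was 2.58-fold lower (303 CPM) and Gria4 2.78-fold higher (1600). Both levels of layer 4 were apart from those of the other excitatory types in every mouse: the highest Gria1 of layer 4 was 365 and the lowest Gria4 1350. Grin3a was 2.20-fold lower, Gria2 1.11-fold lower, and Grin1 and Grin2a were 1.31-fold and 1.22-fold higher. In all, 7 of 9 tested subunits were called, where 33.8% of all genes were. For Grin3a the mean of the others includes the Tshz2 type (80.0 CPM). Layer 4 (7.26 to 27.7) overlapped layer 6b (23.9 to 47.5) and layer 6 corticothalamic neurons (10.1 to 15.5) in Grin3a. For Grin2a the mean of the others includes layer 6b (769 CPM), and layer 4 (1838) overlapped every excitatory type but layer 6b. In the AMPA family, Gria4 held 43.4% ± 6.51 and Gria2 42.4% ± 4.39 of UMIs in layer 4, and Gria4 averaged 15.1% over the other types.

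Layer 2/3 and layer 6 corticothalamic neurons were the excitatory types with the most Gria3. Their means of 1262 ± 90.1 and 1285 ± 97.9 CPM overlapped each other and the range of Sst interneurons (1123 to 1325), and both exceeded layer 5 (901 ± 37.0) in every mouse. Against the mean of the other types, 5 of 9 tested subunits were called in layer 2/3 (32.4% of all genes), all higher: Gria3 1.90-fold, Gria4, Grin2a and Grin2b each 1.30-fold, and Grin3a 1.33-fold. For Grin2a that mean includes layer 6b (769 CPM), and layer 2/3 (1983) overlapped every excitatory type but layer 6b. Mean Gria4 (876) was below layer 4 (1600) and the Tshz2 type (918), and mean Grin3a (39.3) below the Tshz2 type (80.0) and layer 5 (43.6). Gria4 in layer 2/3 ranged from 661 to 1166 CPM, with both 6-month mice above both 3-month mice. Its share of AMPA UMIs differed by -0.503 percentage points from the average of the other types, with 2 of 4 mice in one direction. In layer 6 corticothalamic neurons 6 of 9 were called (29.7% of all genes). Gria3 was 1.87-fold, Gria1 1.25-fold, Gria2 1.22-fold and Grin1 1.17-fold higher there, while Gria4 was 1.85-fold and Grin3a 2.99-fold lower. For Gria1 the mean of the others includes layer 4 (303 CPM), and these neurons (641 to 1116) overlapped every excitatory type but layer 4. The Gria1 share differed by 0.705 percentage points, with 3 of 4 mice in one direction. Grin3a in these neurons was 10.1 to 15.5 CPM, no higher than in oligodendrocytes (10.4 to 21.03).

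Layer 5 neurons, which include the cells projecting out of the cortex, had the highest Gria1 of the excitatory types (1048 ± 140 CPM, 1.66-fold above the others), although its range overlapped those of layer 6b and layer 6 corticothalamic neurons. There 5 of 9 subunits were called, all higher, against 17.8% of all genes, and 3 were called without the first 6-month mouse. Grin3a was 1.53-fold, Grin2a 1.29-fold, Gria3 1.25-fold and Grin2b 1.11-fold higher than the mean of the other types. For Grin2a that mean includes layer 6b (769 CPM), and layer 5 (1978) overlapped every excitatory type but layer 6b. For Gria3 it includes layer 4 (220 CPM), while layer 5 (901) was below layer 2/3 and layer 6 corticothalamic neurons in every mouse. The Gria3 share of layer 5 differed from the average of the others in one direction in only 2 of 4 mice. The Tshz2 type held the most Grin3a of the excitatory types, at 54.2, 95.4, 78.4 and 91.9 CPM, 2.94-fold above the others. Each mouse was above every mouse of layer 5 (highest 49.4), while the lowest was within the range of layer 2/3 (highest 55.5). Gria4 was 1.30-fold higher and Grin2b 1.26-fold lower in it, making 3 of 9 called, beside 18.6% of all genes.

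Layer 6b neurons, the remnant of the subplate, were low in Grin2a and, like layer 6 corticothalamic neurons, in Gria4. Grin2a measured 689, 939, 576 and 873 CPM, below every other excitatory type (lowest 1424), a 2.48-fold difference (log2 fold change -1.31 ± 0.08, adjusted p = 1.57e-13, edgeR). Grin2b changed by less (1.14-fold lower), and the Grin2b share was 67.9% ± 1.04, against an average of 49.5% in the other excitatory types. Gria4 was 2.58-fold lower, at 320 ± 54.0 CPM, Grin1 1.29-fold lower and Gria1 1.28-fold higher. For Gria4 the mean of the others includes layer 4 (1600 CPM), and layer 6b (276 to 387) overlapped layer 6 corticothalamic neurons (342 to 544). For Gria1 it includes layer 4 (303), and layer 6b (718 to 1161) overlapped every excitatory type but layer 4. In all, 5 of 9 subunits were called (18.9% of all genes), and 3 were called without the first 3-month mouse; this type had 30 to 38 nuclei a library.

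**Figure D2:**
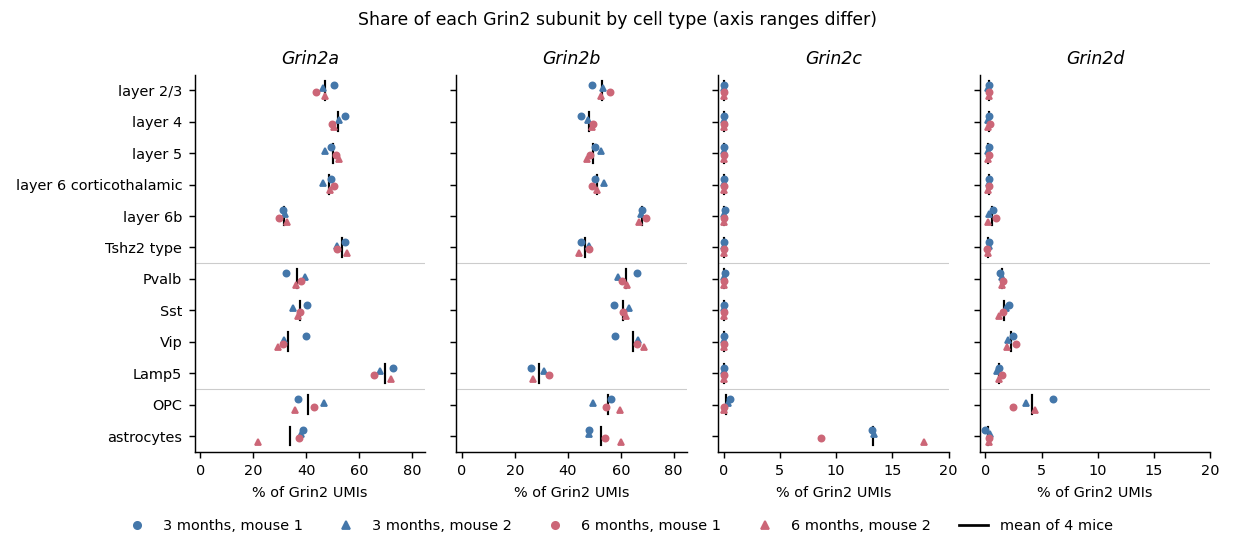
Percent of the UMIs of the 4 Grin2 genes taken by each gene (x axis, ranges differ) in each cell type (y axis), for 4 mice (points) with their mean (black line). Lamp5 nuclei were high in Grin2a (69.7%), layer 6b in Grin2b (67.9%), Grin2c reached 13.3% in astrocytes, and Grin2d stayed under 0.6% on average in excitatory types. Layer 6b is high in Grin2b among the excitatory types only, since Vip nuclei (57.6% to 68.7%) overlap it.

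Among interneurons, the Sst type, which inhibits distal dendrites, held the most AMPA transcripts of all types. Its 4 AMPA genes summed to 8066 ± 387 CPM, and Gria1 alone measured 3585, 3801, 3193 and 3639, each above the highest value in any other neuron type or glial class (1806, in the striatal-marker nuclei). Against the mean of the other 3 interneuron types Gria1 was 3.20-fold (adjusted p = 4.38e-15), Gria3 3.26-fold and Gria4 1.65-fold higher, and Gria2 did not pass (1.01-fold, adjusted p = 0.956). For Gria3 that mean includes Vip nuclei (90.9 CPM), and Sst nuclei (1218) were also above Pvalb nuclei (883) in every mouse. Gria2 made up 18.6% ± 0.861 of AMPA UMIs, the lowest mean share of the classes compared. Sst nuclei were also marked by Grin3a, at 526, 680, 616 and 616 CPM, 9.07-fold above the other interneurons (log2 fold change 3.18 ± 0.15, adjusted p = 2.65e-16, edgeR). Grin2a was 1.58-fold lower than a mean that includes Lamp5 nuclei (3471 CPM), and its range overlapped those of Vip and Pvalb nuclei. The count was 5 of 9 subunits, with 18.0% of all genes called.

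Vip interneurons, which mostly inhibit other interneurons, held little Gria3, Grin3a and Gria4. Gria3 measured 68.3, 69.2, 45.5 and 181 CPM, 8.21-fold below the other interneurons (log2 fold change -3.04 ± 0.18, adjusted p = 5.06e-14), and its mean was under that of microglia (186). Grin3a was 5.67-fold and Gria4 2.27-fold lower, Grin2a 1.49-fold and Gria1 1.36-fold lower. Gria2 was 1.43-fold higher, and reached 49.8% ± 2.25 of AMPA UMIs, against an average of 25.5% in the other interneuron types. Grin2b and Grin1 were 1.26-fold and 1.22-fold higher, so 8 of 9 were called (18.6% of all genes). For Grin2a the mean of the others includes Lamp5 nuclei (3471 CPM), and Vip nuclei overlapped Sst and Pvalb nuclei. For Gria1 it includes Sst nuclei (3554), and Vip nuclei (801 to 1355) were above every Lamp5 library (highest 780). This was the smallest type, with 25 to 36 nuclei a library.

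Lamp5 interneurons, which include neurogliaform cells, were set apart by Grin2a. It measured 3743, 3462, 2707 and 3972 CPM, above every mouse of every other class (highest 2275, in layer 2/3), and 3.76-fold above the other interneurons (log2 fold change 1.91 ± 0.10, adjusted p = 1.43e-15, edgeR). Grin2a thus made up 69.7% ± 3.41 of Grin2 UMIs, against an average of 35.7% in the other interneuron types. Gria1 was 2.62-fold and Gria2 1.34-fold lower. These 3 of 9 subunits were called, beside 25.8% of all genes. Pvalb interneurons, the fast-spiking type, had 2.12-fold higher Gria3 and 1.39-fold higher Gria4, and 1.60-fold lower Grin2a and 1.496-fold lower Grin2d, making 4 of 9 called (31.8% of all genes). For Gria3 the mean of the others includes Vip nuclei (90.9 CPM), while Pvalb nuclei (883) were below Sst nuclei (1218) in every mouse. Gria4 was also lower in every Pvalb library (highest 1620) than in any Sst library (lowest 1658). For Grin2a the mean of the others includes Lamp5 nuclei (3471), while Pvalb (862), Sst (876) and Vip (865) nuclei overlapped.

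Grin2d, whose receptors have slow kinetics and weak magnesium block, was ordered Lamp5 (59.7 ± 6.08 CPM), Vip (59.3 ± 10.9), Sst (39.2 ± 9.99) and Pvalb (34.8 ± 4.69), and each neighbour in that order overlapped the next. All 4 interneuron types lay above every excitatory type (highest 18.6). Between the 10 neuron types the mean of Grin1 ran from 393 in Pvalb to 663 in layer 4, and in all 10 types the first 3-month mouse had the highest value.

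**Figure D3:**
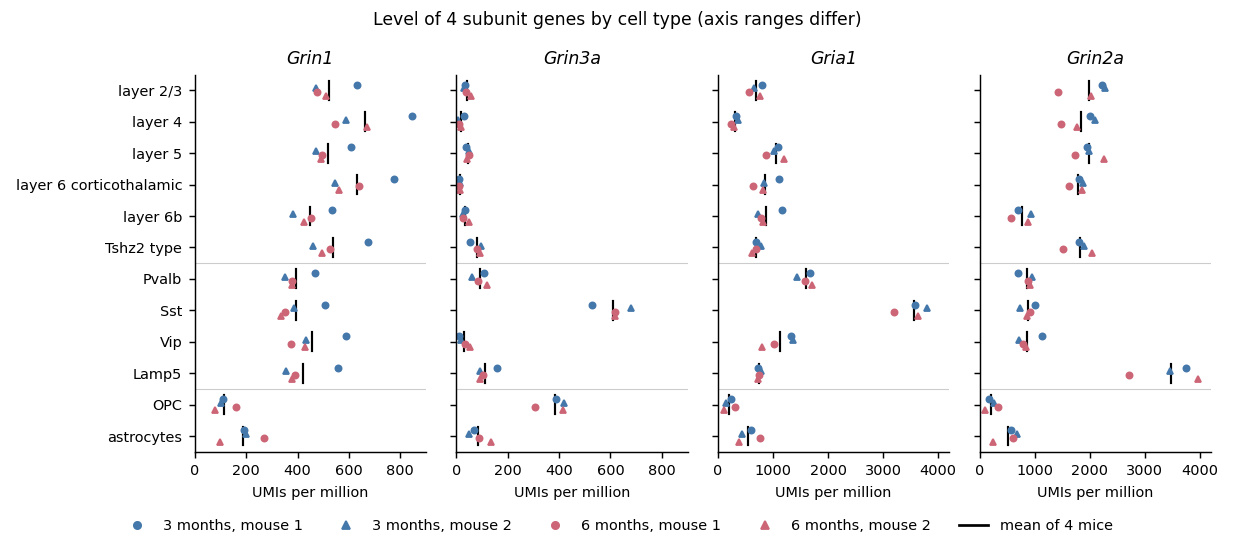
Levels of Grin1, Grin3a, Gria1 and Grin2a in CPM (x axis, ranges differ) by cell type (y axis), for 4 mice (points) with their mean (black line). Grin3a was highest in Sst nuclei and OPC (means 610 and 383), Gria1 in Sst (3554) and Grin2a in Lamp5 nuclei (3471), each without overlap with the other types drawn.

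The striatal-marker nuclei had 4 of 9 subunits called against interneurons (12.4% of all genes): Grin1 1.28-fold higher, and Grin3a 1.51-fold, Grin2d 1.48-fold and Gria4 1.43-fold lower. The count was 1 without either 3-month mouse, 0 without the first 6-month mouse and 4 without the second.

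OPC carried Gria2 and Gria4 near the level of excitatory neurons in CPM, but less Gria1 and Gria3, and few of the main NMDA subunits. The level summed over the AMPA genes was 3322 ± 139 CPM in OPC, below the 4363 ± 134 of excitatory neurons (SD over mice). Gria2 averaged 1719 ± 167 CPM in OPC and 1797 in excitatory neurons, and Gria4 827 ± 47.2 and 840. On the scale of fitted folds both were still called lower in OPC, 1.31-fold and 1.26-fold, and Gria3 was 2.01-fold lower. Gria1 (5.196-fold lower), Grin1 (6.21-fold), Grin2a (11.7-fold) and Grin2b (9.21-fold) fell furthest. Grin3a went the other way: it measured 388, 419, 308 and 416 CPM in OPC, 8.46-fold above excitatory neurons (log2 fold change 3.08 ± 0.12, adjusted p = 4.02e-17, edgeR). With Grin2d not passing (1.43-fold, adjusted p = 0.0933), 8 of 9 subunits were called, where 45.1% of all genes were.

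In droplet data free RNA gives UMIs in nuclei that do not express a gene, so levels in microglia and oligodendrocytes are given beside those in OPC. Microglia, with a median of 1475 to 2280 UMIs per nucleus in the 4 libraries against 8361 to 12081 in excitatory neurons, gave 13.1% to 24.7% of the excitatory level for Gria1 to Gria4, Grin1, Grin2a and Grin2b. Mean Gria1 was 196 CPM in OPC, 196 in microglia and 92.2 in oligodendrocytes. Mean Grin2a was 209, 245 and 137 in the same order, and mean Grin2b 272, 317 and 186. For these 3 genes the range over mice in OPC overlapped those of both other classes. By mouse, Gria1 in OPC was above microglia in 1 of 4 (233 against 82.8 in the first 3-month mouse), and Grin2a and Grin2b in 2 of 4. Gria2 (mean 407 in microglia), Gria3 (186), Gria4 (147) and Grin3a (23.98) were higher in every mouse of OPC than in any of microglia. Grin1 in OPC ranged from 79.3 to 159 and overlapped microglia (36.6 to 105).

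In OPC against oligodendrocytes, their mature descendants (median of 2920 to 4318 UMIs per nucleus in OPC and 1702 to 2822 in oligodendrocytes), 7 of 9 subunits were called (49.7% of all genes), each higher in OPC. Grin3a was 22.3-fold higher (382.7 against 15.7 CPM), Gria2 5.28-fold, Gria3 5.06-fold, Gria4 2.40-fold, Grin2d 3.23-fold, Grin1 2.41-fold and Gria1 1.99-fold. Grin2a and Grin2b did not pass (adjusted p = 0.0937 and 0.0703). Gria2 made up 51.7% ± 3.94 of AMPA UMIs in OPC, more than in interneurons in 4 of 4 mice. Gria4 in oligodendrocytes stood at 285 to 352 CPM, 38.0% of the excitatory level and above every microglia library (highest 206).

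Of the classes compared, astrocytes had the highest Grin2c, without overlap with the others. It measured 192, 237, 143 and 197 CPM there (205 UMIs in all), against 4 UMIs in all oligodendrocytes (0.476 CPM, 95% Poisson interval 0.130 to 1.22, counting error only). No Grin2c UMI was found among 22755928 UMIs of layer 2/3 nuclei, and none in Sst or Vip nuclei. With 3 UMIs taken as the approximate one-sided 95% limit for a count of 0, the limits were 0.132, 1.18 and 3.42 CPM. They cover counting error only, not the spread between mice. Against oligodendrocytes 9 of 9 tested subunits were called in astrocytes (42.6% of all genes): Gria1 5.58-fold, Gria2 5.56-fold, Grin3a 5.17-fold, Grin2b 4.05-fold, Grin1 3.94-fold, Grin2a 3.49-fold and Gria3 2.36-fold higher, besides Grin2c, and Gria4 1.58-fold lower. Grin2d did not pass the filter. Gria2 held 63.4% ± 7.88 of AMPA UMIs, ranging from 52.9% to 72.1% between mice. Astrocyte nuclei still held Sv2b, a neuronal gene, at 127 CPM, and its part in the neuronal subunits' levels was not tested.

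**Figure D4:**
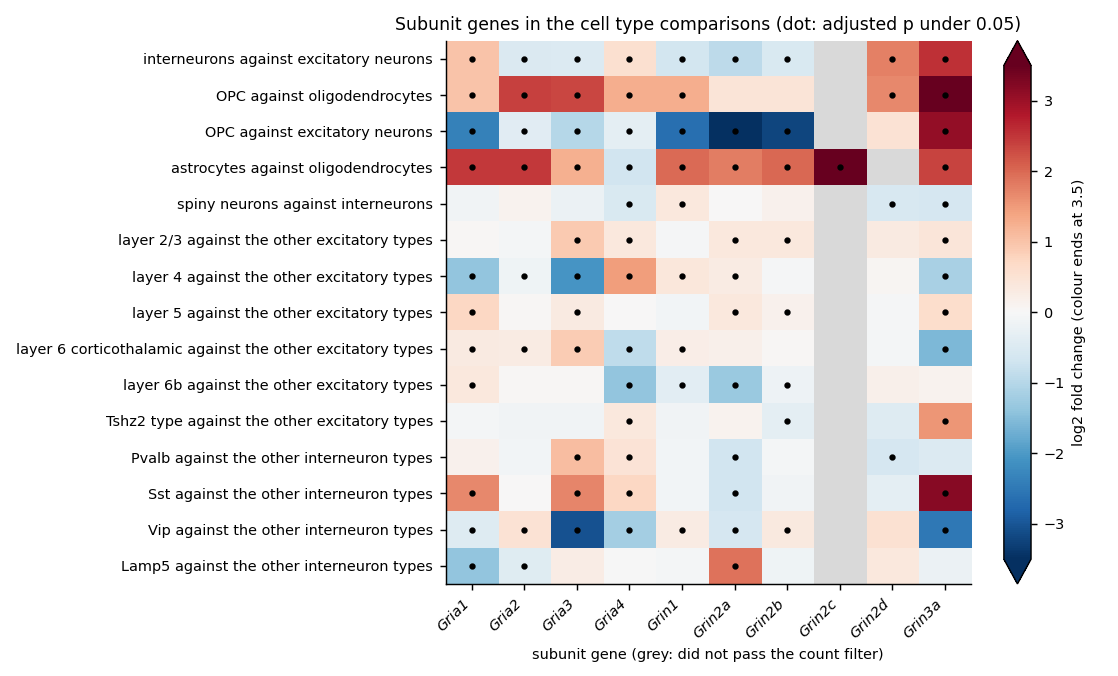
Log2 fold change (colour, red higher and blue lower in the first-named cells) of each subunit gene (columns) in each cell type comparison (rows); a dot marks adjusted p under 0.05 and grey a gene that did not pass the count filter. The row labelled spiny neurons is the striatal-marker nuclei. Among neuron types Gria3 is blue in Vip (-3.04) and layer 4 (-2.06) and Grin3a in Vip (-2.50), and Grin3a is red in Sst (3.18) and OPC (3.08 against excitatory neurons).

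Genes that act with these receptors were taken from 4 lists, chosen with earlier results of these data known. Of 13 auxiliary AMPA subunits, 13 were called between interneurons and excitatory neurons (7 higher, 6 lower, median log2 fold change 0.21), where 54.3% of all genes were called with a median of 0.03. Cnih3 and Cacng3, which help AMPA receptors reach the surface and slow their closing, fell by 1.75 and 1.24 on the log2 scale, and Cacng7 rose by 0.81. In OPC against excitatory neurons 10 of 13 were called (45.1% of all genes), 2 higher and 8 lower, with a median of -0.65 (-0.07 over all genes). Cacng4, a transmembrane AMPA regulator, was 6.01 higher on the log2 scale (586 CPM in OPC, 7.58 in excitatory neurons), while Cacng3 fell by 3.41 and Cacng2 by 3.08. In Sst nuclei 8 of 12 tested were called (18.0% of all genes), 7 of them higher, with Shisa6 (log2 fold change 2.04) and Cacng3 (1.45) among them. In layer 4, 10 of 13 were called (33.8% of all genes), 3 higher and 7 lower. Cnih3 was higher (1.28) and Gsg1l (-1.92) and Cacng8 (-1.36) were lower.

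The other ionotropic glutamate receptor genes (kainate and delta subunits and their Neto partners) differed between cell types as well. Between interneurons and excitatory neurons 8 of 9 tested passed (54.3% of all genes), 4 in each direction, led by Grik1 (log2 fold change 2.98). In layer 4 all 9 tested passed (33.8% of all genes), 2 higher and 7 lower: Grik4 (-4.34), Grik3 (-3.46) and Neto2 (-3.44) were lower and Grik1 (3.35) was higher. In layer 6b, 6 of 9 passed (18.9% of all genes), with Grik3 (2.64) the first by adjusted p. In Sst nuclei 6 of 9 passed (18.0% of all genes), 5 higher, and Grik3 was again first (3.29).

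Of 18 postsynaptic scaffolds and kinases, 15 were called in interneurons against excitatory neurons, 4 higher and 11 lower (median log2 fold change -0.74), where 54.3% of all genes were called with a median of 0.03. Grip1, which binds the tails of Gria2 and Gria3 proteins, was 3.37 higher, and Homer1 (-2.01), Dlg1 (-2.08) and Camk2a (-1.67) were lower. In OPC against excitatory neurons 15 of 18 were called (45.1% of all genes), all lower, with a median of -1.48 (-0.07 over all genes). Of 7 metabotropic receptors, 5 were called in interneurons (54.3% of all genes), all lower (Grm7 by 1.21 and Grm8 by 1.38 on the log2 scale), and in Sst nuclei 5 of 5 tested were called (18.0% of all genes), all higher.

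Across 15 neuron types and glial classes, the genes whose class means followed a subunit most closely were listed as a description. Grin1 went with Unc13a, Nphp4 and Trank1 (Pearson r of log2 levels 0.987, 0.985 and 0.983), and Gria2 with Nrcam, Dok6 and Adgrl3 (0.956, 0.950 and 0.946). Grin2b went best with Gm14330 (0.987), a gene annotated inside it on the opposite strand. Grin2c was nearest to Prdm16os, Nat8f5 and Gm4491 (0.991, 0.988 and 0.987). For Gria3 the highest value was that of Pglyrp1, 0.874. All classes come from the same 4 libraries.

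Between 3 and 6 months, no subunit gene passed the test in any class. In 14 classes, 124 gene and class pairs could be tested with 2 mice an age, and edgeR called 0 of them, with 7 at an unadjusted p under 0.05, and DESeq2 also 0. As background, 0.00533% of genes were called in excitatory neurons, 0.124% in the Tshz2 type, and 0% in the other 12 classes. Fitted log2 differences lay between -0.60 (Grin2d, Tshz2 type) and 0.80 (Gria3, Vip, SE 0.51), and 117 of 124 were smaller than 0.5. The 3-month and 6-month libraries did not overlap in 44 of the 124 pairs (35.5%), against 34.7% of all tested gene and class pairs.

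The smallest adjusted p among subunits was that of Gria4 in layer 2/3 (0.304, log2 fold change 0.70 ± 0.14). It measured 661 and 676 CPM at 3 months and 1166 and 1001 at 6 months, without overlap. Gria4 also did not overlap between ages in layer 4 (1410 and 1350, then 1839 and 1804; log2 fold change 0.43 ± 0.14, adjusted p = 0.504) or layer 6 corticothalamic neurons (405 and 342, then 544 and 436; 0.41 ± 0.17, adjusted p = 0.997). In interneurons the ages did not overlap either, but in the other direction (1459 and 1393, then 1354 and 1381; -0.05 ± 0.09). Over the 14 classes the ages did not overlap in 7, beside 34.7% of all tested gene and class pairs, and Gria4 passed in none. Among the 7, the 6-month mice were higher in 6 (also in all excitatory neurons, the Tshz2 type and OPC) and lower in 1. The excitatory types are also part of all excitatory neurons, so these classes are not separate observations. Gria2, too, did not overlap between ages in a number of classes, in both directions. It was lower at 6 months in layer 2/3, layer 4, layer 6b, Pvalb, Vip and striatal-marker nuclei and in all interneurons. It was higher in layer 5 and in all excitatory neurons. Its smallest adjusted p over the 14 classes was 0.744 (edgeR), and the same background of 34.7% applies. As a share of AMPA UMIs, Gria4 was 37.8% at 3 months and 49.0% at 6 months in layer 4, the largest of 112 share differences, and 15.3% and 23.5% in layer 2/3. With 2 mice against 2, the exact permutation test cannot go below p = 0.333 (two-sided), and after adjustment every one of the 112 stood at 1.

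Markers of layer 4 were also counted in the nuclei called layer 2/3. The 5 markers summed to 51.8 and 48.6 CPM at 3 months and 80.1 and 57.0 at 6 months, none was at 0, and 1 of 5 (Rorb, 39.6 and 38.7, then 67.9 and 42.9) was higher in both 6-month mice. The other 4 were not, and the part of these markers in the Gria4 result was not tested. The number of layer 2/3 nuclei was 528 and 824 at 3 months and 325 and 229 at 6 months.

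No subunit passed the age test in OPC. Grin3a differed by -0.14 ± 0.20 on the log2 scale, Gria2 by -0.12 ± 0.16 and Gria4 by 0.12 ± 0.17. Leaving out the second 3-month mouse raised the genes called over the 14 classes from 14 to 4438, and 2 subunit calls were among them: Grin1 in interneurons (log2 fold change -0.45, adjusted p = 0.00184, with all mice -0.19 and 0.971) and Gria1 in layer 6 corticothalamic neurons (-0.63, adjusted p = 0.0158, with all mice -0.40 and 0.997). The only 3-month mouse left in those fits is the one with the highest Grin1 in all 10 neuron types, and it is assumed there to vary as the 6-month mice did.

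**Figure D5:**
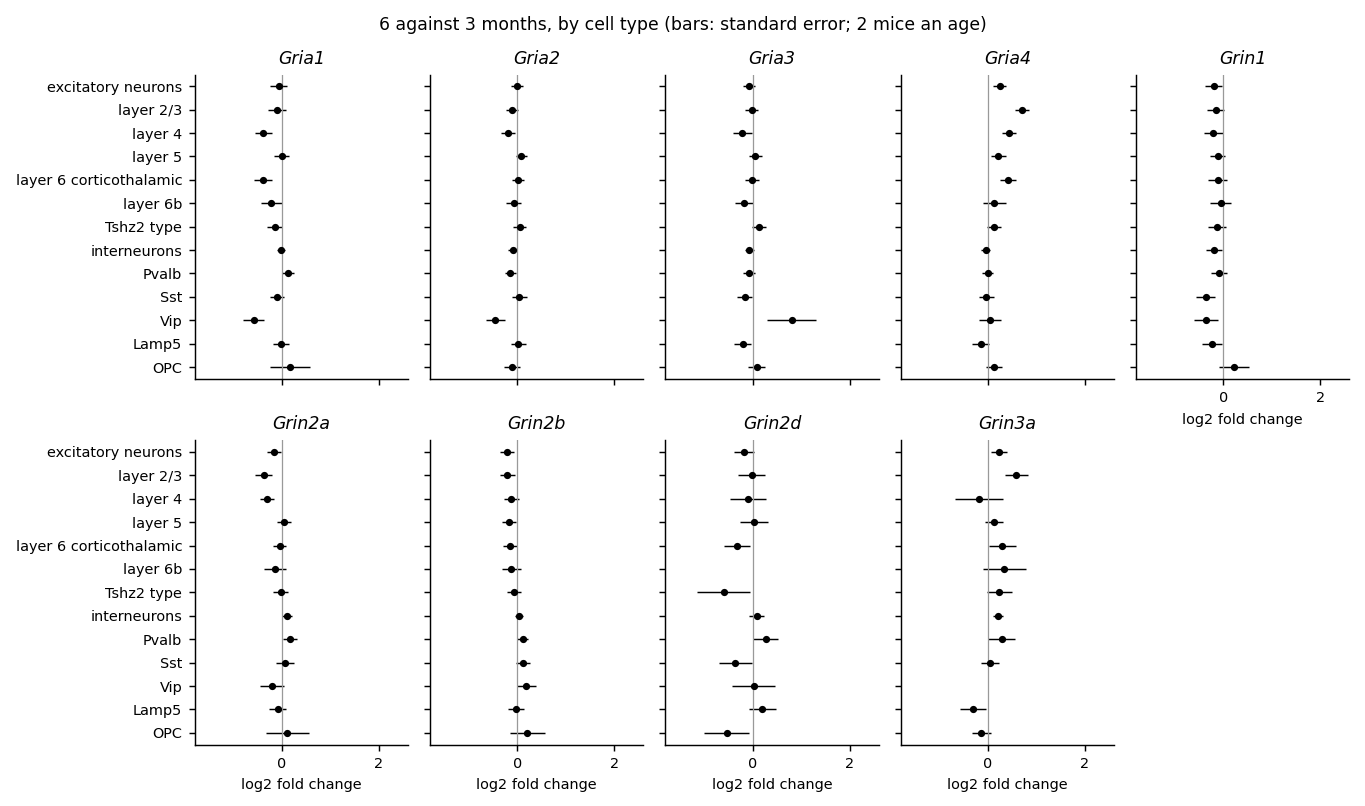
Log2 fold change of 6 against 3 months (x axis, points) with its standard error (bars) for 9 subunit genes by cell type (y axis), 2 mice an age. Most points lie within 0.5 of 0 and none passed the adjusted test; Gria4 lies to the right in layer 2/3 (0.70), layer 4 (0.43) and layer 6 corticothalamic neurons (0.41).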

How the data were processed

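The deposited files hold, per the file headers, raw UMI counts per gene and nucleus from Cell Ranger 7.0.0, 1 matrix per library; the submitters' processing notes name build mm10 and Seurat. The authors' aligner settings for introns and their annotation were not given in the sources used here. Following the study's filter, nuclei with over 7000 genes or over 1% mitochondrial UMIs were left out, which kept 6802 to 8750 nuclei a library; no other doublet removal was made beyond the limit on a second class below. Library totals after the filter were 59262228 to 65894316 UMIs.

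Nuclei were classed by marker lists: the leading list needed 3 UMIs of 2 markers, with the next list at no more than 0.5 of its score, and neuron types needed 2 UMIs of 2 markers with the next at no more than 0.7. These limits were set after the numbers of nuclei and the levels under them had been seen, and the subunit genes and lists were chosen with earlier results of these data known. UMIs were summed per library and class (at least 20 nuclei) and tested with edgeR 4.0.16 (TMM, quasi-likelihood, Benjamini-Hochberg over all genes, threshold 0.05, R 4.3.3), with the mouse as a block between classes and none between ages. The scripts were tested on simulated data. DESeq2 1.42.0 was an alternative, as were other scalings, filters, gates and leaving out each library. Shares were compared by exact tests over mice (scipy 1.17.1). Named genes were the 10 subunits, at most 4 genes of each pathway list per comparison by smallest adjusted p, and the 3 genes nearest each subunit in pattern. Genes are located by GENCODE M21 (GRCm38). Each library is 1 mouse, so SDs cover mice, and Poisson intervals cover counting error only. Results for some genes of these lists are not reported here.

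The labels give 1 batch number to replicates of the same number at both ages, which pairs them. The deviations of the 2 batches correlated between ages by -0.123 in excitatory neurons, -0.0742 in interneurons and -0.0123 in OPC over genes.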

Additional observations from a re-analysis of the deposited data

Results flagged for a closer look

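Granule-type nuclei entered no comparison, since 3 of 4 libraries held under 20 of them. In the second 3-month mouse, 78 such nuclei carried 24 Grin2c UMIs, or 86.6 CPM, well above the layer 2/3 nuclei, where none was seen. Fat2, a held-out granule cell marker, stood at 101 CPM in the same nuclei. Grin2c is known from cerebellar granule cells; the origin of these nuclei was not tested. The other libraries held 6, 4 and 9 such nuclei, with 0, 0 and 4 Grin2c UMIs.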

How the results depend on the processing

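Of 995 refitted values for called subunits and the age differences printed, 933 kept direction and call, 59 lost the call, 2 gained it and 1 turned: Gria3 in Vip nuclei between ages, from 0.80 to -0.61 without the second 6-month mouse, with up to 1.37 without the first. Across 15 class comparisons 88 subunit calls were made, 88 with RLE size factors, 86 with DESeq2, 91 without the count filter, 87 without the filter on nuclei, 92 under a looser gate and 76 without the mouse block; under a stricter gate only 4 comparisons had enough nuclei (31 calls against 33). The striatal-marker nuclei fell from 4 calls to 2 with DESeq2, the looser gate or no mouse block, and ranged from 0 to 4 without each library. Lamp5 rose from 3 to 5 under the looser gate, and layer 6b fell from 5 to 3 without the mouse block and ranged from 3 to 5 without each library; layer 5 ranged from 3 to 4 against 5 with all mice. Without the count filter, Gria4 in layer 2/3 between ages was called (1 call, edgeR adjusted p = 0.0175, where the alternatives ran up to 1.00), among 531 genes called over the 14 classes against 14 with the filter. Age comparisons ranged from 0 to 1 subunit calls without each library in interneurons and in layer 6 corticothalamic neurons. With the replicate block, pairing mice by batch, 0 subunits were called in any age comparison, and genes called over the 14 classes went from 14 to 85; the crossed pairing, added after seeing the data because some classes correlated below -0.1, gave 0 subunits and 499 genes. DESeq2 called 109 genes. Shares whose ages did not overlap numbered 36 of 112 (32.1%), where 2 mice against 2 come apart by chance with probability 0.333. They numbered 64 to 74 without each library, where 2 mice are set against 1 and come apart by chance more often. No age shift in shares is read from these counts. The causes of these changes were not tested. With 2 mice an age, small age differences could not be detected.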
